A study of Homo sapiens with 6 samples.

Results

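The aminoacyl-tRNA synthetases were followed in ARPE-19 cells, a human retinal pigment epithelial line, after 3 h of oxidant exposure. The genes were chosen by symbol: 19 encode cytosolic enzymes and 16, whose symbols end in 2, encode mitochondrial enzymes. All 35 had signal above the floor used here (log2 4.64) and were among the 12221 genes tested, of 18132 with a probe set naming 1 gene. The H2O2 3 h group is ARPE-19 cells transfected with GFP and given 10 mU/ml glucose oxidase, an enzyme that makes hydrogen peroxide from glucose, for 3 h starting 48 h after transfection (3 arrays). The H2O2 0 h group is ARPE-19 cells transfected with GFP and left without the enzyme (3 arrays). The sample descriptions of the 3 h arrays name a GFP-Satllite alpha construct in place of GFP, so construct and exposure cannot be told apart if the descriptions are right. The titles give the untreated group as 0 h, while the protocol can be read as cells kept without the enzyme for the same 3 h. The labels do not say whether replicates were separate cultures, so p-values measure the spread between these arrays, which may be technical.

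Aminoacyl-tRNA synthetases join each amino acid to its tRNA, the step that supplies charged tRNAs to the ribosome. Human cells run 2 sets, both encoded in the nucleus: one works in the cytosol and the other is imported to serve mitochondrial ribosomes, while GARS1 and KARS1 supply both compartments from a single gene. Many cytosolic synthetase genes are known targets of ATF4, the transcription factor of the amino acid starvation response, whose sites include the amino acid response element.

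The 2 sets had different counts of calls. Of the 19 cytosolic genes, 4 rose (VARS1, MARS1, WARS1 and GARS1), 3 fell (HARS1, LARS1 and FARSB) and 12 did not pass the test, with changes between -0.45 and 0.55 on the log2 scale. Of the 16 mitochondrial genes, 4 rose (TARS2, LARS2, VARS2 and AARS2), 8 fell (MARS2, HARS2, RARS2, FARS2, WARS2, YARS2, NARS2 and IARS2) and 4 did not pass, with changes between -0.72 and 0.30. Calls are an adjusted p under 0.05 in limma, and 20.6% of all genes tested rose, 30.8% fell and 51.3% were called in either direction. Against that last share stand 36.8% of the cytosolic genes, 75% of the mitochondrial genes and 54.3% of all 35, so the family as a whole was called about as often as any gene. The median log2 change was 0.05 for the cytosolic genes and -0.21 for the mitochondrial genes, beside -0.04 for all genes tested. The difference of 0.25 between the compartment medians was not tested.

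The 3 h arrays lay wholly above or wholly below the 0 h arrays for 14 of the 19 cytosolic genes (7 above and 7 below) and for 15 of the 16 mitochondrial genes (5 above and 10 below), against 60.5% of all genes tested. Averaged over the mitochondrial genes and set against the mean of the 0 h arrays, log2 levels were -0.16, -0.12 and -0.17 on the 3 h arrays, and 0.02, -0.00 and -0.02 on the 0 h arrays. The same average over the cytosolic genes was 0.01, -0.00 and 0.03 on the 3 h arrays, and 0.01, 0.01 and -0.01 on the 0 h arrays. Over all genes tested it was -0.03, -0.03 and -0.04 on the 3 h arrays, and 0.01, -0.00 and -0.01 on the 0 h arrays. The mitochondrial average separated the groups, as did the smaller shift over all genes, while the cytosolic average did not.

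**Figure D1:**
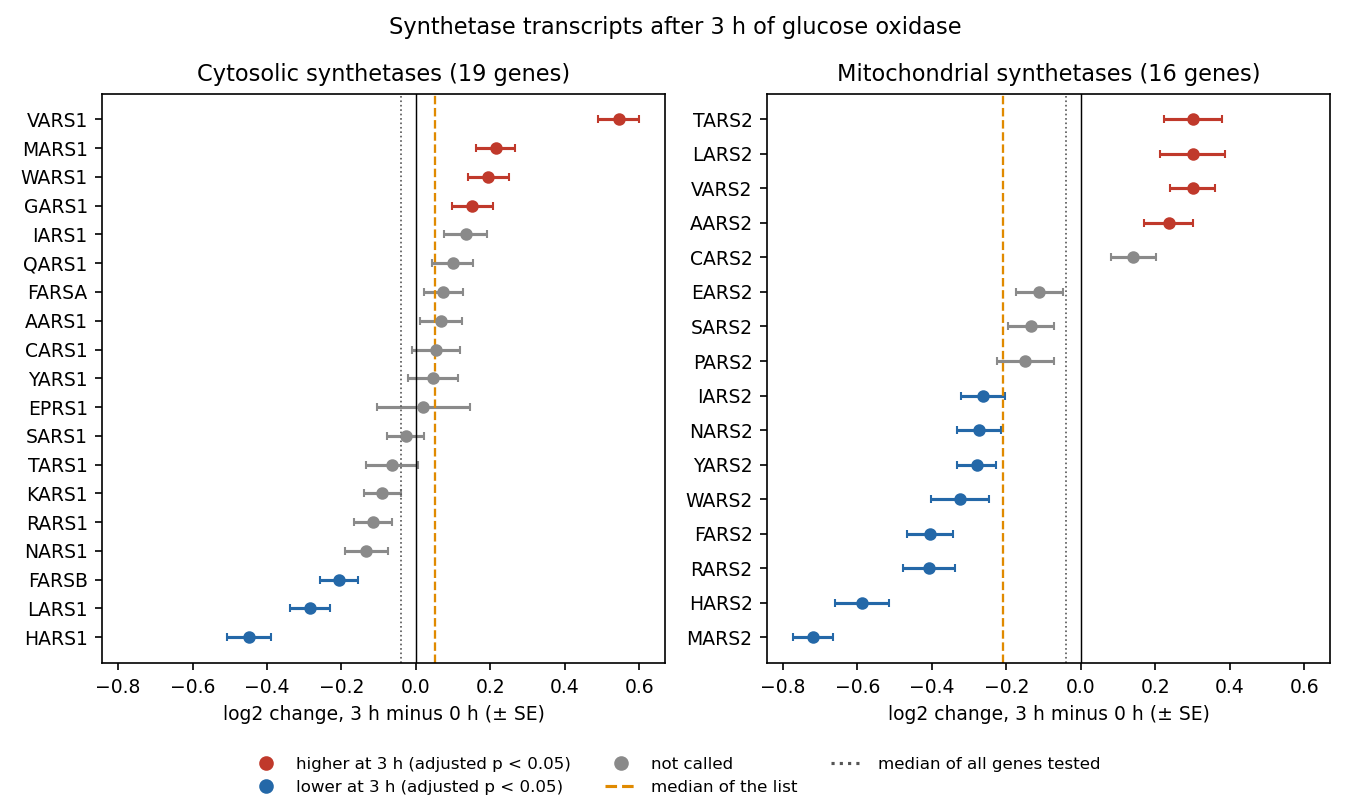
Log2 change (3 h minus 0 h) of each synthetase with its standard error, for 19 cytosolic and 16 mitochondrial genes. Colours give calls at an adjusted p under 0.05 in limma: red for higher, blue for lower and grey for not called. Cytosolic changes run from -0.45 (HARS1) to 0.55 (VARS1), and mitochondrial changes from -0.72 (MARS2) to 0.30 (TARS2).

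Several measures of sample preparation moved with the groups. The 5′ minus 3′ log2 difference of the actin control probe sets was -1.20 ± 0.06 at 3 h and -2.06 ± 0.07 at 0 h (SD, n = 3 each), and that of GAPDH was -0.13 ± 0.04 at 3 h and -0.39 ± 0.05 at 0 h. All 24 poly-A spike probe sets, which report RNA added by the laboratory, were lower on every 3 h array than on any 0 h array, with a median change of -0.60. The same held for 17 of 18 hybridization spike probe sets, with a median of -0.31. The part of preparation in the changes below was not tested. Array values correlated at 0.996 to 0.997 within the 3 h group, at 0.997 to 0.998 within the 0 h group and at 0.979 to 0.983 between the groups. The epithelial keratins KRT8 and KRT18 were high in both groups, with log2 means of 11.88 and 12.56 at 3 h and of 11.48 and 12.22 at 0 h. The visual cycle and pigment genes RPE65, RLBP1 and TYRP1 were under the floor, at log2 means of 3.48, 4.20 and 3.56 over the 6 arrays. MITF, the pigment cell transcription factor, was at 8.32, and SERPINF1, PMEL, TYR, TTR and BEST1 were above the floor at 5.92, 5.80, 5.28, 5.07 and 4.72. Markers of other cell types stood at like levels (SYT1 6.22, HBB 5.92, PECAM1 5.29, VWF 5.19 and CD3E 5.11). A level in this range therefore does not show that a pigment marker was expressed. Of the 8 pigment epithelium markers tested, of 11 listed, 3 rose and 1 fell (50% called, against 51.3% of all genes tested). The leukocyte markers PTPRC and CD14 were under the floor too, at 2.49 and 3.53, while the T cell marker CD3E (log2 means of 5.23 at 3 h and 5.0 at 0 h) and HBB (5.90 at 3 h and 5.94 at 0 h) were above it. Of the 5 markers of blood, endothelial and neuronal cells tested, of 8 listed, 0 rose by limma (1 at an unadjusted p under 0.05) and 1 fell (SYT1, -0.22). The share called was 20%. Within these bulk RNA values, a lower level in every cell and fewer cells that make the transcript cannot be told apart.

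Among the cytosolic enzymes, VARS1 rose most. VARS1, which charges the valine tRNA, had log2 levels of 8.98, 8.96 and 8.92 on the 3 h arrays, against 8.46, 8.35 and 8.42 on the 0 h arrays. The groups lay well apart, and the change of 0.55 ± 0.05 (SE, 1.46-fold, adjusted p = 0.000133 in limma) was shared by its other 3 probe sets above the floor, at 0.72, 0.69 and 0.89.

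MARS1, the methionine enzyme of the multisynthetase complex, had log2 levels of 9.0, 9.01 and 8.98 at 3 h, against 8.83, 8.74 and 8.77 at 0 h. It rose by 0.21 (adjusted p = 0.00866 in limma) at a cross-hybridizing probe set, with no overlap between the groups. With all its probe sets averaged, however, the change was 0.08 and was not called. That average includes a probe set under the floor, at -0.51. The other probe sets above the floor were at 0.21, 0.65 and -0.15, with a mean of 0.24. Of these only the one at 0.65 was called in a limma fit over all probe sets. WARS1, the tryptophan enzyme, which interferon also induces, stood at log2 levels of 9.64, 9.54 and 9.54 at 3 h, against 9.37, 9.36 and 9.41 at 0 h. It rose by 0.19 (adjusted p = 0.0176 in limma), again without overlap, although the call was lost without 0 h replicate 1 (0.19) or without 0 h replicate 2 (0.18). The other WARS1 probe sets above the floor were at -0.005, not called though nearly as bright, and at 0.73, a rise. GARS1, the glycine enzyme of both compartments, had 11.32, 11.34 and 11.43 at 3 h, against 11.22, 11.24 and 11.18 at 0 h. Its rise of 0.15 stood at the threshold (adjusted p = 0.0479 in limma), and 1 of the 6 fits that leave out an array kept the call.

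HARS1, the histidine enzyme, had the widest fall of the cytosolic set at its brightest probe set. Its log2 levels were 9.27, 9.26 and 9.17 at 3 h, against 9.70, 9.62 and 9.73 at 0 h, a change of -0.45 ± 0.06 (SE, 1.36-fold lower, adjusted p = 0.000401 in limma) with no overlap. Its other probe sets were at 0.17 and 0.04, and the mean of all was -0.08 and was not called (adjusted p = 0.272). LARS1, the leucine enzyme, which also serves as a leucine sensor for mTORC1 signalling, had 9.50, 9.55 and 9.59 at 3 h, against 9.83, 9.85 and 9.80 at 0 h. It fell by 0.29 on the log2 scale (adjusted p = 0.00232 in limma), and its other probe sets above the floor fell too, at -0.24 and -0.47. FARSB, the beta subunit of the phenylalanine enzyme, had 9.68, 9.72 and 9.73 at 3 h, against 9.95, 9.91 and 9.90 at 0 h. It fell by 0.21 on the log2 scale (adjusted p = 0.00936 in limma) without overlap at this probe set, which is of the shared kind, while its other 3 above the floor were at 0.16, 0.20 and 0.13. The direction turned with the mean of all probe sets (0.08) and without shared probe sets (0.16), and neither was called. The alpha subunit FARSA had a change of 0.07 that was not called.

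The cytosolic genes nearest to no change differed in how steady they were. SARS1, for serine, had log2 levels of 10.47, 10.47 and 10.49 at 3 h, against 10.52, 10.50 and 10.50 at 0 h. YARS1, for tyrosine, had 9.03, 9.24 and 9.22 at 3 h, against 9.09, 9.15 and 9.11 at 0 h. SARS1 varied little within either group, with a change of -0.03 (adjusted p = 0.667 in limma), and the YARS1 arrays overlapped, with a change of 0.05 (adjusted p = 0.599). EPRS1, the bifunctional enzyme for glutamate and proline, had 8.76, 8.72 and 9.09 at 3 h, against 8.88, 9.02 and 8.61 at 0 h. Its arrays overlapped across a wide range (SD 0.20 at 3 h and 0.21 at 0 h), and the standard error of its change of 0.02 was 0.13, against 0.05 for LARS1. The other cytosolic genes without a call were IARS1 at 0.13, QARS1 at 0.10, AARS1 at 0.07, CARS1 at 0.05, TARS1 at -0.06, KARS1 at -0.09, RARS1 at -0.12 and NARS1 at -0.13 on the log2 scale. By structural class, 3 of 10 class I cytosolic genes rose and 1 fell, and 1 of 9 class II genes rose and 2 fell. Of the 7 synthetases held in the multisynthetase complex, 1 rose (MARS1), 1 fell (LARS1) and 5 were not called, with a median change of 0.02. The shares called were 40%, 33.3% and 28.6%, against 51.3% of all genes tested.

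Among the mitochondrial enzymes, MARS2, which charges the mitochondrial methionine tRNA for both initiation and elongation, fell furthest. Its log2 levels were 6.67, 6.72 and 6.70 at 3 h, against 7.45, 7.36 and 7.44 at 0 h. The arrays within each group lay close together and the groups were far apart, with a change of -0.72 ± 0.05 (SE, 1.65-fold lower, adjusted p = 3.87e-05 in limma). This held for the brightest probe set only: the others had changes of 0.13 and 0.28, and with all averaged the change was -0.11 and was not called (adjusted p = 0.153). HARS2, the mitochondrial histidine enzyme, had 5.93, 5.96 and 5.72 at 3 h, against 6.42, 6.46 and 6.50 at 0 h. It fell by 0.59 on the log2 scale (adjusted p = 0.000325 in limma) with no overlap, and its second probe set fell too (-0.28).

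RARS2, the arginine enzyme, had log2 levels of 8.24, 8.45 and 8.39 at 3 h, against 8.80, 8.81 and 8.70 at 0 h. FARS2, a single-chain phenylalanine enzyme unlike its cytosolic counterpart, had 7.37, 7.36 and 7.39 at 3 h, against 7.86, 7.79 and 7.68 at 0 h. Both changes were -0.41 (adjusted p = 0.0015 for RARS2 and 0.000801 for FARS2 in limma), with no overlap for either gene. The FARS2 change was -0.19 and not called with all its probe sets averaged. WARS2, for tryptophan, had 6.36, 6.52 and 6.51 at 3 h, against 6.77, 6.92 and 6.67 at 0 h, and fell by 0.32 on the log2 scale (adjusted p = 0.00804 in limma). YARS2, NARS2 and IARS2, for tyrosine, asparagine and isoleucine, fell, with log2 changes of -0.28, -0.27 and -0.26.

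The 4 mitochondrial genes that rose did so by similar amounts. TARS2, the threonine enzyme, had log2 levels of 7.56, 7.79 and 7.71 at 3 h, against 7.49, 7.29 and 7.38 at 0 h, and rose by 0.30 (adjusted p = 0.0112 in limma). LARS2, VARS2 and AARS2, for leucine, valine and alanine, rose by 0.30, 0.30 and 0.24. VARS2 was read at a cross-hybridizing probe set, and without such probe sets its change was -0.05 and was not called. The 3 h arrays of all 4 genes lay above the 0 h arrays. The AARS2 call was lost without 0 h replicate 2 (0.19), and the LARS2 call without 0 h replicate 1 (0.28), without 0 h replicate 2 (0.30) or without 3 h replicate 2 (0.29).

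CARS2, for cysteine, had log2 levels of 9.18, 9.22 and 9.13 at 3 h, against 9.12, 8.96 and 9.03 at 0 h. EARS2, for glutamate, had 7.40, 7.54 and 7.39 at 3 h, against 7.61, 7.56 and 7.50 at 0 h. SARS2, for serine, had 6.17, 6.35 and 6.22 at 3 h, against 6.42, 6.37 and 6.35 at 0 h. None of these passed the test (changes of 0.14, -0.11 and -0.13, adjusted p = 0.084, 0.175 and 0.106 in limma), nor did PARS2, for proline, at -0.15. By structural class, 2 of 9 class I mitochondrial genes rose and 5 fell, and 2 of 7 class II genes rose and 3 fell. The shares called were 77.8% and 71.4%, against 51.3% of all genes tested.

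**Figure D2:**
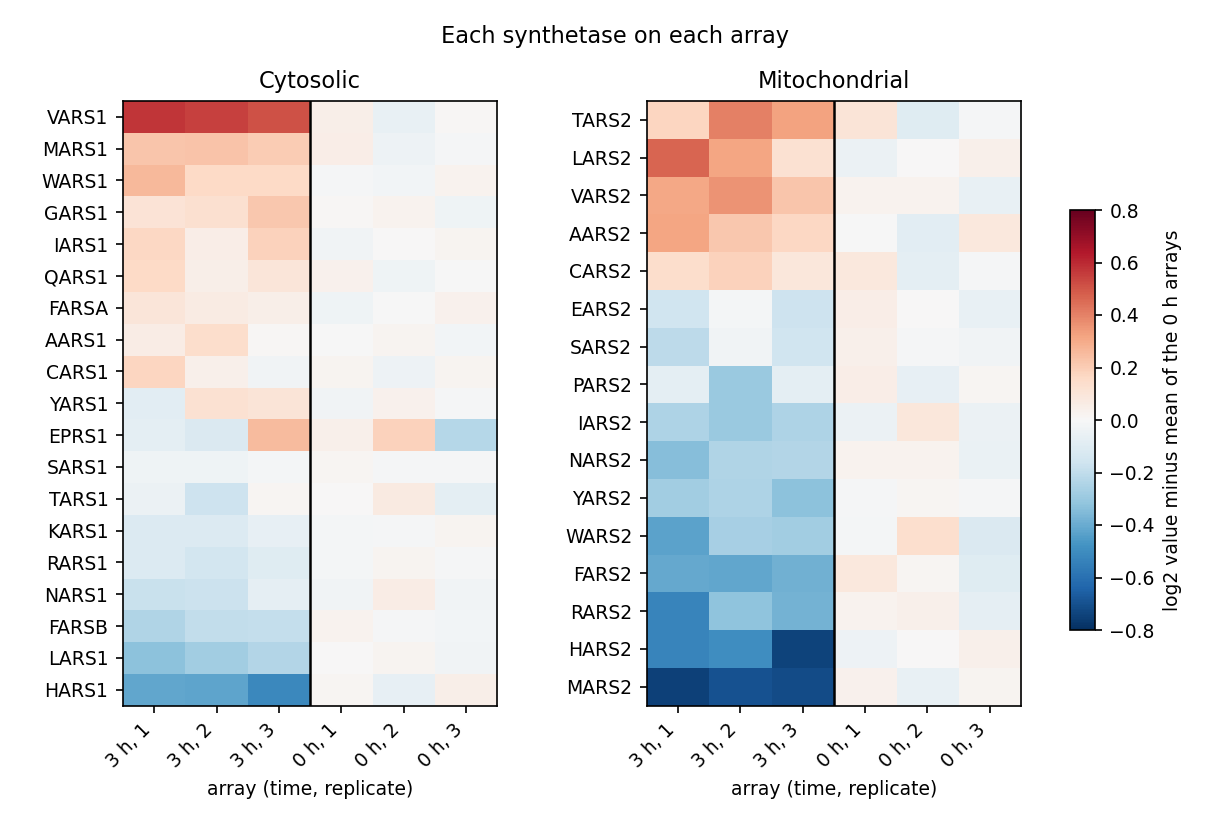
Log2 value of each synthetase (rows) on each array (columns, 3 h left of 0 h) minus the mean of the 0 h arrays, with red above and blue below. The 3 h columns are blue for most mitochondrial genes, down to MARS2 at a mean of -0.72, and mixed for the cytosolic genes.

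For 13 amino acids, each compartment has an enzyme with its own gene under the same letter. The cytosolic change was the higher in 9 of the 13 and the lower in 4. In 3 pairs the partners were called in opposite directions. MARS1 rose by 0.21 and MARS2 fell by 0.72 on the log2 scale, a difference of 0.93. WARS1 rose by 0.19 and WARS2 fell by 0.32, a difference of 0.52. The leucine pair ran the other way, since LARS1 fell by 0.29 and LARS2 rose by 0.30 (difference -0.59). These 3 pairs did not hold under every alternative: with all probe sets averaged MARS1 was 0.08 and MARS2 -0.11, neither called, and the WARS1 and LARS2 calls were lost without some single arrays, as given above. The MARS1 average includes a probe set under the floor. MARS1 was read at a cross-hybridizing probe set. A WARS1 probe set nearly as bright as the one read was at -0.005 and was not called, while another was at 0.73, a rise. At the brightest probe sets both histidine enzymes fell and both valine enzymes rose. Only the mitochondrial partner was called in 6 pairs (isoleucine, tyrosine, arginine, asparagine, alanine and threonine), and neither was called for serine and cysteine. The phenylalanine enzymes, paired by subunit, differed by 0.48 for FARSA against FARS2 and by 0.20 for FARSB against FARS2. EPRS1 differed from PARS2 by 0.17 and from EARS2 by 0.13. These differences are between probe sets of different genes and were not tested.

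**Figure D3:**
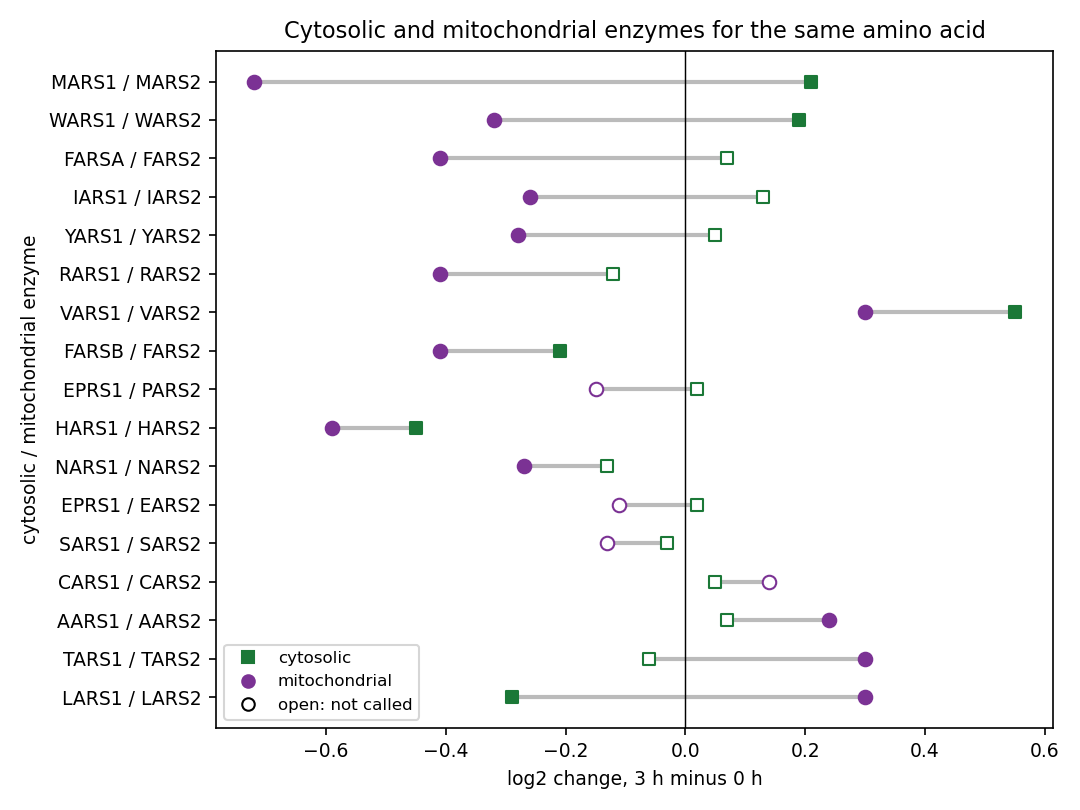
Log2 change (3 h minus 0 h) of the cytosolic enzyme (green squares) and the mitochondrial enzyme (purple circles) for each amino acid, with open symbols for genes not called. The methionine pair spans the widest gap (0.93), and the leucine pair has the opposite order (-0.59).

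The array carries 88 probe sets naming 1 of these genes, of which 81 were above the floor. In a fit over all 27235 such probe sets, 25.6% rose and 26.1% fell. Of the 50 cytosolic probe sets 13 rose and 8 fell, and of the 31 mitochondrial probe sets 8 rose and 10 fell, so the surplus of falls among the mitochondrial genes was smaller when every probe set counted. Of 25 synthetase genes with more than 1 probe set above the floor, 10 (40%) had the mean of the other probe sets on the opposite side of 0 from the brightest, against 25.3% of 7120 genes. The other probe sets gave the higher change in 17 of the 25 (68%), against 60.3% of the 7120 genes.

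MARS2, FARSB and NARS1 had probe sets called in both directions. For MARS2 the brightest fell (-0.72), while the others had changes of 0.13 and 0.28 and the second of these rose (adjusted p = 0.0233 in limma). For FARSB the brightest fell (-0.21), a second rose (0.20), and 0.16 and 0.13 were not called. For NARS1 the changes were -0.13 at the brightest, 0.08, -0.32, which fell, and 0.57, which rose. The direction of these 3 genes therefore depended on the probe set read.

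Other genes disagreed without opposite calls. HARS1 was at -0.45 at its brightest probe set and at 0.17 and 0.04 at its others, and FARS2 at -0.41 and 0.03. TARS1 was -0.06 at its brightest and -0.48, a fall, at a second. QARS1 was 0.10 at its brightest and 0.68, a rise, at another, and EPRS1 was 0.02 and -0.39, a fall. VARS1, LARS1, HARS2, TARS2 and AARS2 had calls in 1 direction at every probe set above the floor. When all probe sets of a gene were averaged, HARS1 (-0.08), MARS1 (0.08), FARS2 (-0.19) and MARS2 (-0.11) were no longer called. Of these averages, that of MARS1 includes a probe set under the floor.

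**Figure D4:**
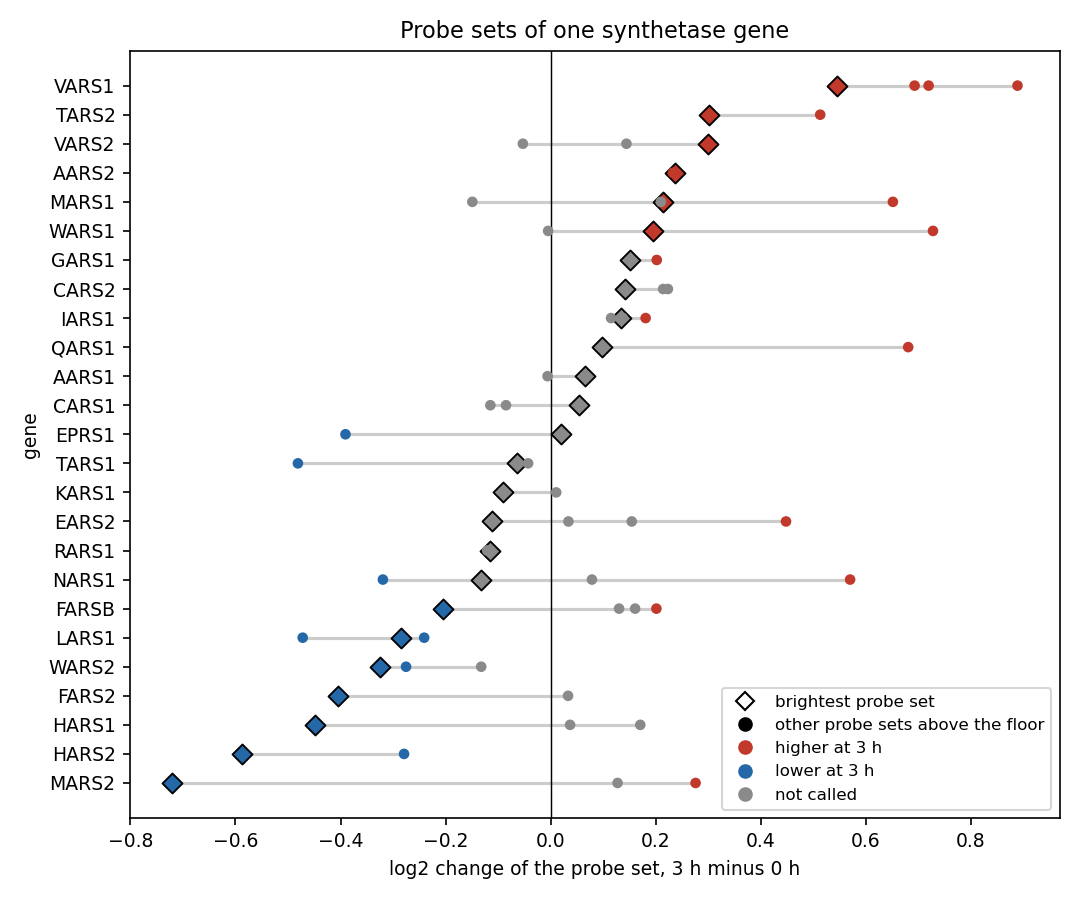
Log2 change (3 h minus 0 h) of every probe set above the floor for each synthetase, with the brightest marked and colours for calls in the fit over all probe sets. The probe sets of VARS1 lie between 0.55 and 0.89, and those of MARS2 between -0.72 and 0.28.

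The promoters were read for the amino acid response element because many of the cytosolic genes are known ATF4 targets. This motif and the second one below were chosen after the values had been seen. RefSeq (GRCh38.p14) windows from 250 bases before to 50 after the annotated start were at hand for 30 of the 35 genes, 16 cytosolic and 14 mitochondrial. LARS1, VARS1, YARS1, AARS2 and VARS2 were not included. One form of the element, TGATGCAA on either strand, occurred in 6 of the 16 cytosolic windows (37.5%) and in 0 of the 14 mitochondrial windows. It occurred in 0.699% of the windows of 10021 genes tested and in 1.08% of all 27305 windows. The stretches that hold it are shown 5′ to 3′ on the strand of the gene, with TGATGCAA or its complement TTGCATCA in capitals.
MARS1 chr12:57488053-57488082 (+): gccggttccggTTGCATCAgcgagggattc
IARS1 chr9:92293692-92293721 (-): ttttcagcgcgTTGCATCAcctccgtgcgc
AARS1 chr16:70289675-70289704 (-): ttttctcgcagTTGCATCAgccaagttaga
CARS1 chr11:3057407-3057436 (-): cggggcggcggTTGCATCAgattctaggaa
TARS1 chr5:33440956-33440985 (+): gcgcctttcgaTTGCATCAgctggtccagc
NARS1 chr18:57621804-57621833 (-): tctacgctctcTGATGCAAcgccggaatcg
In MARS1, IARS1, CARS1 and TARS1 the element lies beside the annotated start, in NARS1 at position 14 after it, and in AARS1 at position -187 before it. TGATGCAA reads on the strand of the gene in NARS1 and on the opposite strand in the others. Of these 6 genes 1 rose (MARS1, 0.21) and 5 were not called, with changes of -0.13 to 0.21 and a median of 0.06. A match is a description of letters and says nothing of binding in these cells. A second motif, CCGGAAG, the core recognised by ETS factors, occurred on either strand in 9 of 16 cytosolic windows (56.2%) and in 7 of 14 mitochondrial windows (50%), against 21.4% of the windows of genes tested.

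HARS1 and HARS2 are neighbours transcribed away from each other, and both fell at their brightest probe sets. Their annotated starts are 85 bases apart, so the windows share 184 bases, in capitals below on the HARS2 strand (HARS2, GRCh38.p14, chr5:140691205-140691504, +).
HARS2: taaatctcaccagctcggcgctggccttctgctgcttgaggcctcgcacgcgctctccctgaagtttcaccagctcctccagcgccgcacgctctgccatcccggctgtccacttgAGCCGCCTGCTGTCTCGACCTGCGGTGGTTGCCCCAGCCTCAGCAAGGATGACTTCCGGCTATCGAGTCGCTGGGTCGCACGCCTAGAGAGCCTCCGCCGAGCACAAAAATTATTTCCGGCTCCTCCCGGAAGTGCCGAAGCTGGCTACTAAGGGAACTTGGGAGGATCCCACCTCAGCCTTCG

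The wider machinery around charging was read in gene lists. Of 12 synthetases known as ATF4 targets, 3 rose and 1 fell (33.3% called, against 51.3% of all genes tested, median 0.05). Among 14 genes of amino acid starvation sensing, 6 rose and 0 fell by limma (0 also at an unadjusted p under 0.05), with a median of 0.08. The share called was 42.9%, against 51.3% of all genes tested in either direction. All these calls were rises, and 20.6% of all genes tested rose. The genes that rose included SESN2 (0.79, adjusted p = 6.32e-05 in limma), a leucine sensor and stress-induced inhibitor of mTORC1, GCN1 (0.50, 0.000126), the partner of the kinase GCN2, and the transcription factors ATF5 (0.73, 0.000136) and ATF3 (0.40, 0.000489). ATF4 itself had a change of -0.03 (adjusted p = 0.678), DDIT3 of -0.09 (0.192) and ASNS, the asparagine synthetase gene, of 0.09 (0.226), and none passed the test. ASNS passed at 0.15 with all its probe sets averaged (adjusted p = 0.0385 in limma) and at 0.37 without shared and cross-hybridizing probe sets (0.00165). These 3 genes were named after their values had been seen. Of 8 cytosolic elongation factor genes, EEF2 (0.23, adjusted p = 0.00448 in limma) and EEF1G (0.21, 0.0127) rose and 0 fell, also 0 at an unadjusted p under 0.05. The share that rose was 25%, near the 20.6% of all genes tested.

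Among genes that work with the mitochondrial enzymes, calls ran downward. Of 12 tested genes for mitochondrial charging and elongation, 8 fell and 0 rose by limma (0 also at an unadjusted p under 0.05), with a median of -0.26. The share called was 66.7%, all falls, against 30.8% of all genes tested that fell and 51.3% called in either direction. The genes that fell are named here by smallest p. GFM1, a mitochondrial elongation factor (-0.52, adjusted p = 0.000343 in limma), MRRF, the ribosome recycling factor (-0.39, 0.000407), and the initiation factors MTIF3 (-0.41, 0.00188) and MTIF2 (-0.29, 0.00465) were among them. With all probe sets averaged MRRF was -0.11, and without shared and cross-hybridizing probe sets GFM1 was -0.19, and each was then not called.

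A separate list holds synthetase scaffolds, paralogs, selenocysteine synthesis and editing genes, and it is not a mitochondrial list. Of its 6 tested genes 5 fell: SEPSECS and PSTK, which turn serine on its tRNA into selenocysteine (-0.77, adjusted p = 0.000173, and -0.60, 0.000223, in limma), TARS3 (-0.39, 0.0113), AIMP1, a scaffold of the multisynthetase complex (-0.23, 0.00808), and DTD2 (-0.20, 0.0199), named after its value was seen. The share called was 83.3%, all falls, against 30.8% of all genes tested that fell. The DTD2 call was lost without 0 h replicate 1 (-0.18), without 0 h replicate 2 (-0.18) or without 3 h replicate 2 (-0.19). The TARS3 change was -0.18 with all its probe sets averaged and was then not called. SEPSECS and TARS3 lay near the floor of log2 4.64, with means of 4.85 and 4.94 at 3 h and of 5.62 and 5.33 at 0 h.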

How the data were processed

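Per the labels' protocols, a 3′ IVT kit was used to amplify and label total RNA of 6 ARPE-19 samples, with 1 Affymetrix array each. The deposited table holds log2 values for 49372 probe sets, a scale read from the values. MAS5 and RMA are named in the submitters' processing notes, but how the authors made these values is otherwise not given in the sources used here. Array medians were 5.34 at 3 h and 5.30 at 0 h. The number of arrays limits the precision.

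Groups came from the sample titles. Probe sets naming 1 gene in the platform annotation were used, and 4 that name a synthetase with other genes were left out. Each gene was read at its brightest probe set, and genes under the 40th percentile of mean signal (log2 4.64, 5911 genes) were not tested. One limma fit over 12221 genes (lmFit, eBayes; version 3.58.1, R 4.3.3) compared the groups, and calls have a Benjamini-Hochberg adjusted p under 0.05. The fit was tested on simulated data. Figures used matplotlib 3.10.9.

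Values per array are given for the 6 called genes of each compartment with the widest change and the 3 nearest 0, for GARS1 because it stood at the threshold, and for other lists the 4 called genes with the smallest p are named. The synthetases, the lists and the motifs were chosen with earlier results of these data known. Alternatives covered centring, floor, probe set rule, fit, threshold, replicate block and leaving out each array.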

Additional observations from a re-analysis of the deposited data

How the results depend on the processing

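Median centring gave 5 cytosolic falls and medians of 0.01 (cytosolic) and -0.24 (mitochondrial), and EPRS1 was -0.02. A floor at the 60th percentile gave a mitochondrial median of -0.26 and a difference between compartment medians of 0.31. The mean of all probe sets of a gene gave 5 rises and 2 falls among cytosolic genes, 5 rises and 6 falls among mitochondrial genes, a mitochondrial median of -0.10 and a difference of 0.14, and turned CARS1 (-0.05), EPRS1 (-0.19), FARSB (0.08), NARS1 (0.05) and EARS2 (0.13). Both of the next rules were chosen after seeing the data. The mean of probe sets above the floor gave 6 cytosolic rises and 2 falls, 4 mitochondrial rises and 6 falls, a mitochondrial median of -0.14 and a difference of 0.19, with CARS1 at -0.05, EPRS1 at -0.19, FARSB at 0.07, NARS1 at 0.05 and EARS2 at 0.13. The brightest probe set outside the shared and cross-hybridizing kinds gave 2 cytosolic rises, a mitochondrial median of -0.15 and a difference of 0.21, with FARSB at 0.16, EARS2 at 0.15 and VARS2 at -0.05. Leaving out also the probe sets that read several transcripts left 3803 genes, 2 of them cytosolic and 5 mitochondrial synthetases: 697 genes rose and 995 fell, 0 cytosolic genes rose and 1 fell, 2 mitochondrial genes rose and 2 fell, the medians were -0.30 (cytosolic) and -0.15 (mitochondrial), and their difference was -0.15. The cause of these moves was not tested, apart from the smaller number of genes in the last.

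With trend and robust eBayes 6 cytosolic genes fell, and array weights gave EPRS1 -0.01. An adjusted p under 0.01 left 2 cytosolic and 1 mitochondrial rises. Requiring at least 1.5-fold left 502 rises and 602 falls of all genes, 0 and 0 cytosolic, and 0 and 2 mitochondrial. Leaving out each array in turn gave 2 to 4 cytosolic rises (2 without 0 h replicate 1 or 2), 2 to 4 mitochondrial rises (2 without 0 h replicate 2), and a cytosolic median of 0.02 to 0.06. EPRS1 then ran from -0.10 to 0.11 (-0.09 without 0 h replicate 3, -0.10 without 3 h replicate 3), CARS1 from 0.00 to 0.10 (0.00 without 3 h replicate 1), and ATF4 turned to 0.01 without 3 h replicate 1. Same-numbered arrays deviated together no more than others (correlations of -0.04, -0.02 and -0.19). With 3 arrays per group, whose deviations sum to 0, this cannot decide whether the numbers pair them. With the replicate number as a block 2336 genes rose and 3502 fell, 3 cytosolic genes rose and 3 fell, 4 mitochondrial genes rose and 8 fell, and GARS1 was not called (adjusted p = 0.0994 in limma). GARS1 was also not called with median centring (log2 change 0.11) or with no floor (adjusted p = 0.0928).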

Other observations

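Genes that process and export tRNAs were also read, and most calls among them were falls. Of 19 tested genes for tRNA maturation and export, 12 fell and 1 rose (68.4% called). Of all genes tested, 30.8% fell, 20.6% rose and 51.3% were called. The median log2 change was -0.33 for the list, beside -0.04 for all genes tested. TRMT10C, a subunit of mitochondrial RNase P that also methylates mitochondrial tRNAs, fell by 0.80 on the log2 scale (adjusted p = 3e-05 in limma). RPP40 (-0.71, 5.32e-05) and POP5 (-0.40, 0.000746), subunits of nuclear RNase P, and TRNT1, which adds the CCA end to tRNAs of both compartments (-0.55, 0.000799), fell as well. XPOT, the tRNA exporter, fell by 0.54 (adjusted p = 0.00202 in limma), and ELAC2, which trims the 3′ ends of tRNA precursors, was the single gene of the list that rose (0.24, 0.0194). The ELAC2 call was lost with all its probe sets averaged (0.10), without 0 h replicate 1 (0.24) and without 0 h replicate 2 (0.22). XPOT and ELAC2 were named after their values had been seen.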
